A study of Homo sapiens with 4 samples.

Results

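AP-1 is a family of dimeric transcription factors that bind DNA through a basic region and a leucine zipper. The genes described here are the 3 Jun genes JUN, JUNB and JUND, the 4 Fos genes FOS, FOSB, FOSL1 and FOSL2, and 3 related zipper genes, ATF3, MAFF and BATF3. They were chosen by gene symbol, and all 10 were present among the 19732 symbols of the A549 expression table. The study, whose title ties the RNA-binding protein RBM4 to cellular senescence, has 4 samples: RBM4-knockdown and control cultures of A549 and of H1299, both human lung cancer cell lines. The titles of the knockdown samples end in "sh"; the labels give no construct sequence, number of clones or time. Both lines were grown with 10% fetal bovine serum. Only the A549 libraries are described, 1 per group, because the 3 value columns of the other table carried names that matched no label. The direction of every difference rests on reading the bare column name A549 as the control and the name with an added number as the knockdown.

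Jun proteins pair with each other or with Fos proteins, whereas Fos proteins need a Jun-type partner. FOS, FOSB, JUN and JUNB are classic immediate early genes, switched on by growth factors and stress through MAP kinases, while JUND is made at a steadier level in many cells. FOSL1 and FOSL2 lack the strong activating domain of FOS. In lung and other carcinoma cells AP-1 is known for driving protease, adhesion and cytokine genes.

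FPKM counts the fragments of a transcript relative to its length and to library size, which puts genes on a common scale. For genes with several transcripts, the level also depends on which transcripts are counted, so comparisons between genes are approximate. In genes with 1 listed transcript, low values fell on whole multiples of 1 fragment: 134 of 141 such values in the knockdown library and 159 of 170 in the control library lay within 0.1 of a whole number, where even spacing would put 20%. The spacing implied about 19500000 fragments in the knockdown library and 20200000 in the control library. Counting intervals below use these fragments, cover counting error only, and say nothing of the variation between cultures, for which there was no replicate. No test of any difference was therefore possible. RBM4 itself had 30.6 FPKM in the knockdown library and 59.4 FPKM in the control library, or 51.5% of the control; it shares exon bases with RBM4B on the opposite strand and with RBM14-RBM4. The epithelial keratins KRT8 and KRT18 were abundant and lower in the knockdown library, at 888 and 912 FPKM, against 1646 and 1853 FPKM in the control library. KRT19 was higher, at 64.9 FPKM in the knockdown library and 29.6 FPKM in the control library, while EPCAM (2.75 FPKM in the knockdown library and 2.74 FPKM in the control library) and CDH1 (6.54 FPKM in the knockdown library and 7.70 FPKM in the control library) were low in both. CDKN2A, which is deleted in A549, was listed at 0 in both, and 12 of 14 fibroblast, immune and endothelial markers were below 1 FPKM in each library. Their summed level was 14.5 FPKM in the knockdown library and 4.85 FPKM in the control library, nearly all of it COL1A1 and CD14. Mitochondrial genome transcripts held 21.7% of FPKM in the knockdown library and 18.6% in the control library. The part of these values in the differences below was not tested. In bulk RNA, more cells expressing a gene and more RNA per cell cannot be told apart.

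JUNB and JUN were at least 2-fold higher in the knockdown library, and JUND was lower. Of the 10 AP-1 genes, all passed the filter of 1 FPKM in either library. Among the 12230 genes tested, 4.96% were at least 2-fold higher and 2.25% at least 2-fold lower (7.21% in either direction) on the log2(FPKM + 1) scale, which understates the difference of low genes. On that scale 2 AP-1 genes were at least 2-fold higher and 0 were at least 2-fold lower. A difference above 0 was found for 9 of the 10, against 46.6% of all genes, and the median difference was 0.55 for the AP-1 genes and -0.04 for all genes. Leaving out mitochondrial genome genes and rescaling the libraries changed the split of all 2-fold genes to 835 higher and 180 lower, against 607 and 275 as deposited. It moved the median of all genes to 0.12 and that of the AP-1 genes to 0.70, and the number of 2-fold AP-1 genes stayed at 2.

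**Figure D1:**
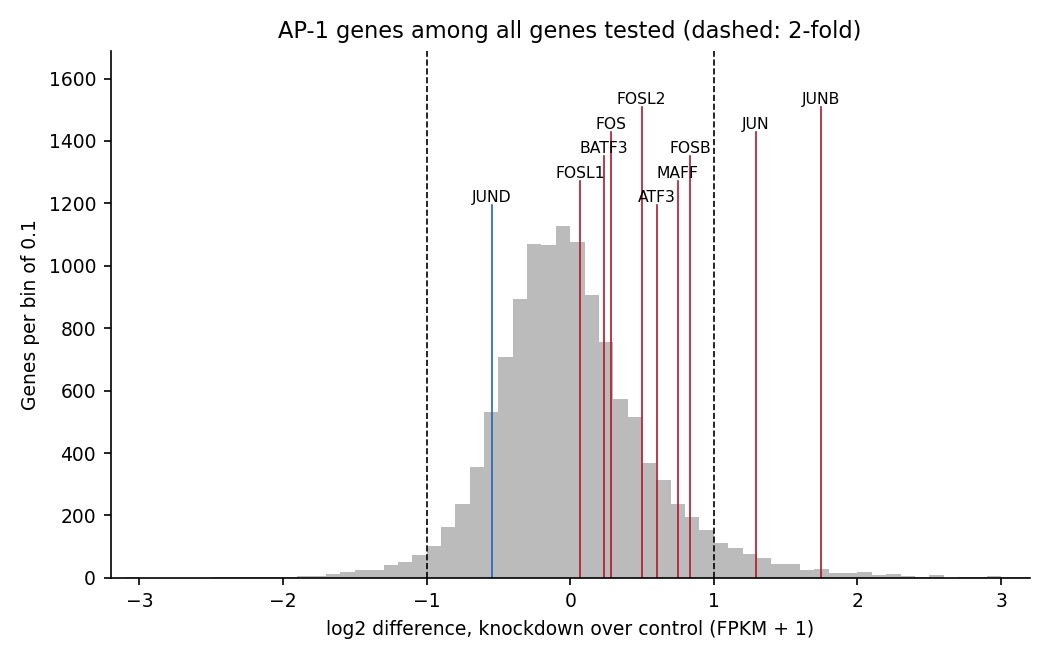
Histogram of the log2 difference, knockdown over control, on the FPKM + 1 scale for 12230 genes in A549 (grey, bins of 0.1), with a line for each AP-1 gene and dashed lines at 2-fold; the axis leaves out the farthest genes. JUNB (1.75) and JUN (1.29) lie beyond the upper dashed line, JUND (-0.55) lies on the lower side, and the other 7 lie between 0.07 and 0.84.

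JUNB, a Jun protein with a weaker activating domain than JUN that can hold JUN in check, had 177 FPKM in the knockdown library and 52.1 FPKM in the control library. The log2 difference was 1.75, above that of 98.9% of genes tested. By estimated fragments, 5361 in the knockdown library and 1640 in the control library, JUNB was 3.38-fold higher after scaling to library size (95% binomial counting interval 3.195 to 3.57). In summed FPKM it was the most abundant AP-1 gene of the knockdown library and the second of the control library. JUNB (ENSG00000171223) lies at chr19:12791496-12793315 on the plus strand of GRCh38 and has 1 exon. Of its exon bases, 259 are shared with HOOK2 on the opposite strand. The library kit named in the labels does not mark strand, so reads there cannot be assigned. HOOK2 had 7.61 FPKM in the knockdown library and 4.94 FPKM in the control library, well under the level of JUNB.

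JUN, the founding member and the strongest activator of the Jun genes, had 33.2 FPKM in the knockdown library and 12.96 FPKM in the control library. Its log2 difference was 1.29, with 97.3% of all genes below it. The estimated fragments were 2120 in the knockdown library and 858 in the control library, a scaled ratio of 2.55 (2.36 to 2.77). JUN (ENSG00000177606, chr1:58780788-58784327, minus strand) also has 1 exon, so its value does not depend on how reads were shared among transcripts.

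JUND, the Jun gene often linked to slower growth, went the other way. It had 45.5 FPKM in the knockdown library and 66.9 FPKM in the control library, a log2 difference of -0.55, above that of 11.7% of genes tested and not past 2-fold. The fragment ratio was 0.733 (0.669 to 0.802). Both listed transcripts of JUND (ENSG00000130522, chr19:18279760-18281622, minus strand) were lower: the longer, ENST00000252818, had 23.2 FPKM in the knockdown library and 30.4 FPKM in the control library, and the short ENST00000600972 had 22.3 FPKM in the knockdown library and 36.4 FPKM in the control library. In summed FPKM JUND ranked 3 among the AP-1 genes of the knockdown library and 1 in the control library. That top place rests on adding the 2 transcripts. With the highest transcript per gene, which for JUND is the 500-base ENST00000600972, JUND ranked 3 in the control library, behind JUNB and FOSL2. With the GENCODE basic set, which keeps only ENST00000252818, JUND had the same rank there.

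**Figure D2:**
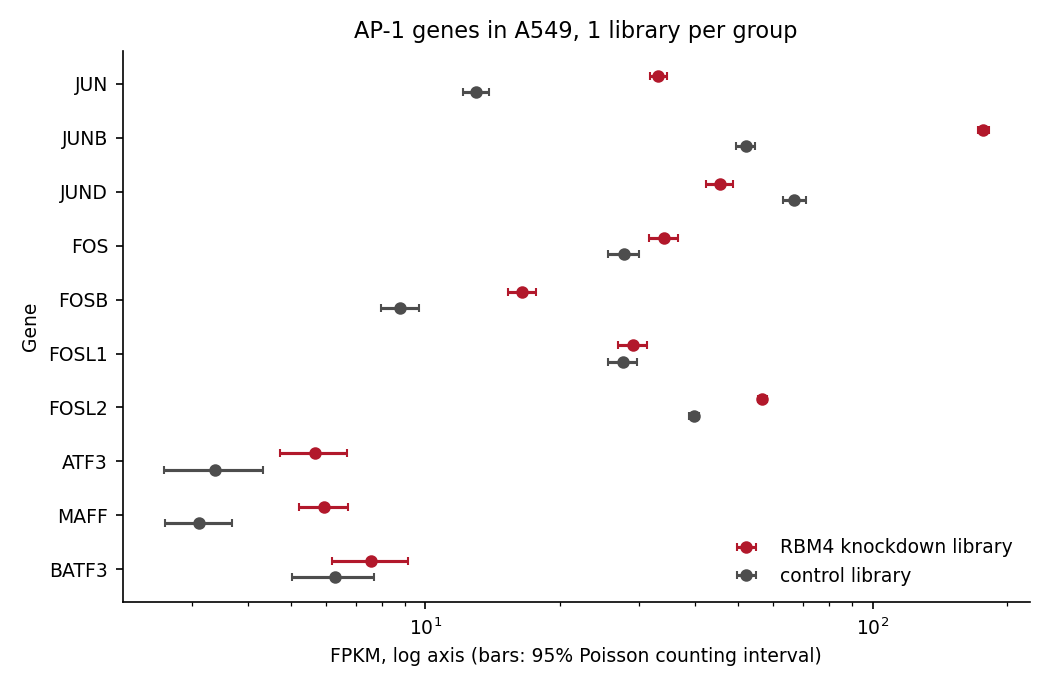
FPKM (log axis) of each AP-1 gene in the RBM4 knockdown library (red) and the control library (grey), 1 library each; bars are 95% Poisson counting intervals from estimated fragments. The points of JUNB and JUN stand farthest apart with the knockdown library higher, JUND has the control library higher, and the intervals of FOSL1 and BATF3 overlap.

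The make-up of the Jun transcripts therefore differed between the libraries. The 3 Jun genes summed to 256 FPKM in the knockdown library and 132 FPKM in the control library. JUNB held 69.2% of this sum in the knockdown library and 39.5% in the control library. JUND held 17.8% in the knockdown library and 50.7% in the control library, and JUN held 12.98% in the knockdown library and 9.83% in the control library. With basic transcripts alone JUND held 9.96% in the knockdown library and 31.9% in the control library, and JUNB, at 75.8% in the knockdown library and 54.5% in the control library, was the largest Jun gene in both. The lower JUND share and higher JUNB share in the knockdown library held in either case. The 4 Fos genes summed to 136 FPKM in the knockdown library and 104 FPKM in the control library. Among them the shares lay closer together: FOSL2 held 41.6% in the knockdown library and 38.3% in the control library, while FOS held 25.0% in the knockdown library and 26.7% in the control library. FOSL1 held 21.3% in the knockdown library and 26.5% in the control library, and FOSB held 12.1% in the knockdown library and 8.43% in the control library. Jun genes made up 62.2% of all AP-1 FPKM in the knockdown library and 53.0% in the control library, or 62.0% and 46.2% of basic transcripts in the knockdown and control libraries. These are transcript levels, and protein was not measured.

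**Figure D3:**
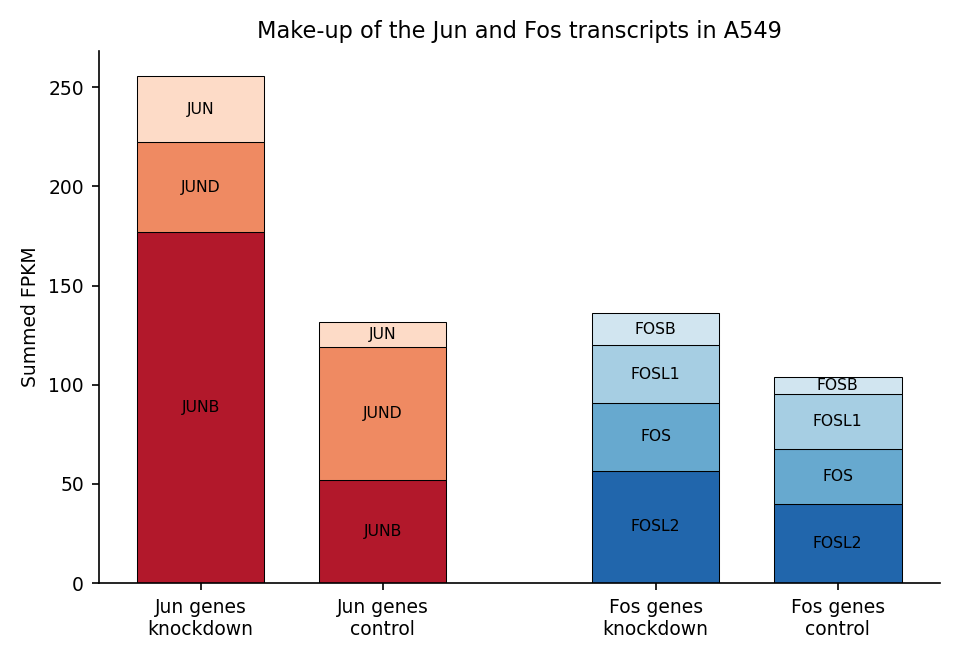
Summed FPKM of the 3 Jun genes and the 4 Fos genes in the knockdown and control libraries of A549, stacked by gene. The Jun bar is 256 FPKM in the knockdown library and 132 FPKM in the control library, and JUNB is the largest Jun block in the knockdown library while JUND is the largest in the control library, where JUNB leads with basic transcripts alone.

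The stretches just before the starts of the 3 Jun genes and of FOSB are shown because JUNB and JUN were higher and JUND lower, and FOSB was the Fos gene with the highest difference. They come from RefSeq on GRCh38.p14, 5′ to 3′ on the strand of the gene, with 250 bases before the start for JUNB (chr19:12791236-12791485, plus strand), JUND (chr19:18281623-18281872, minus strand) and FOSB (chr19:45467746-45467995, plus strand). For JUN, 30 bases around 1 motif are given (chr1:58784096-58784125, minus strand), since GENCODE release 29 places its start farther upstream. In that release these 30 bases lie inside the JUN exon. Capitals mark exact matches on either strand to the motifs searched.
JUNB: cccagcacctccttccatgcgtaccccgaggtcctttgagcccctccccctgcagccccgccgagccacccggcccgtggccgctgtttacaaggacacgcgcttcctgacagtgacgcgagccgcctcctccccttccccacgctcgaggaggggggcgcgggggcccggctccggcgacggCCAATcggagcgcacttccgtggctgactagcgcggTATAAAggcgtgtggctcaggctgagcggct
JUND: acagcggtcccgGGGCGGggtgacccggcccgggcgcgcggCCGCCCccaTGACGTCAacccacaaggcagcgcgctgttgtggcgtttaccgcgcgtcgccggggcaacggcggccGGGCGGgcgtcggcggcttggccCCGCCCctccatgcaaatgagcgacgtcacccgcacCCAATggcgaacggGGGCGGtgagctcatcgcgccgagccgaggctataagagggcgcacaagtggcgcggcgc
FOSB: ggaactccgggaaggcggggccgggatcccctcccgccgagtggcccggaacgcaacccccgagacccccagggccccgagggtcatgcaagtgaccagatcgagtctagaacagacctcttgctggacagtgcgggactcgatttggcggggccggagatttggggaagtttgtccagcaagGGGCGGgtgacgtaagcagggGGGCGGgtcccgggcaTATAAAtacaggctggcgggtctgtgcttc
JUN: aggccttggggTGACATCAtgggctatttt

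The RefSeq promoter table held 8 of the 10 genes, with 2 starts each for ATF3 and MAFF. FOSL1 and BATF3 had no entry. The AP-1 site itself, TGAGTCA with its reverse complement TGACTCA, was in the 250-base window of 0 of these 8 genes and of 4.20% of all 35116 promoters. The cyclic AMP response element TGACGTCA was in JUND, 200 bases before the start, and in MAFF, 54 bases before it, against 1.65% of all promoters. TGACATCA, the form of the element known from the JUN promoter, was searched for after the JUN letters had been seen. It lay 67 bases before the RefSeq start of JUN and 123 bases before 1 start of ATF3, and 2.37% of all promoters held it. TATAAA lay 31 bases before the start in JUNB, 30 in FOSB and 33 in FOS, and 230 bases before 1 start of ATF3. It was in 10.7% of all promoters, and not in the JUND window. GGGCGG was in 7 of the 8 genes and 42.6% of all promoters, and CCAAT was in 5 of the 8 and 32.0% of all. JUNB was the gene with no GGGCGG.

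Among the Fos genes, FOSB had the highest difference and FOSL1 the lowest. FOSB (chr19:45467995-45475179, plus strand), which encodes an activator and a shorter form known from neurons, had 16.5 FPKM in the knockdown library and 8.78 FPKM in the control library, a log2 difference of 0.84, not past 2-fold. Its fragment ratio was 1.92 (1.70 to 2.17). Of 11 listed FOSB transcripts, 6 were higher, 0 were lower and 5 were listed at 0 in both libraries, among them the longest, ENST00000353609. Most of the FOSB signal was given to ENST00000590335, with 9.88 FPKM in the knockdown library and 6.08 FPKM in the control library, and to ENST00000586615, with 4.54 FPKM in the knockdown library and 2.19 FPKM in the control library.

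FOSL2 (chr2:28392448-28417312, plus strand), the most abundant Fos gene in both libraries, had 56.7 FPKM in the knockdown library and 39.9 FPKM in the control library (log2 difference 0.50). With 6544 fragments in the knockdown library and 4879 in the control library it was the most deeply covered AP-1 gene in both, and its fragment ratio was 1.39 (1.34 to 1.44). Its main transcript, ENST00000264716, carried 90.7% of its FPKM in the knockdown library and 91.9% in the control library.

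FOS (chr14:75278774-75282230, plus strand), the immediate early partner of JUN, had 34.1 FPKM in the knockdown library and 27.8 FPKM in the control library (log2 difference 0.29). Its fragment ratio was 1.13, and the counting interval of 1.01 to 1.27 came close to 1. The longest FOS transcript with signal, ENST00000303562, was nearly level at 8.52 FPKM in the knockdown library and 8.07 FPKM in the control library. Most of the excess lay in the short transcripts ENST00000554617, with 11.1 FPKM in the knockdown library and 7.85 FPKM in the control library, and ENST00000555672, with 5.04 FPKM in the knockdown library and 2.54 FPKM in the control library.

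FOSL1 (chr11:65892049-65900573, minus strand), a Fos gene often high in invasive carcinoma cells, had 29.1 FPKM in the knockdown library and 27.6 FPKM in the control library (0.07). Its fragment ratio was 0.996 (0.896 to 1.11), so counting error alone covered the difference. The sum hides transcripts on both sides. The main transcript ENST00000312562 was lower, at 16.6 FPKM in the knockdown library and 19.1 FPKM in the control library. ENST00000531493, at 6.10 FPKM in the knockdown library and 4.76 FPKM in the control library, and ENST00000448083, at 5.62 FPKM in the knockdown library and 3.73 FPKM in the control library, were higher. Taken by the main transcript alone, the log2 difference was -0.19.

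**Figure D4:**
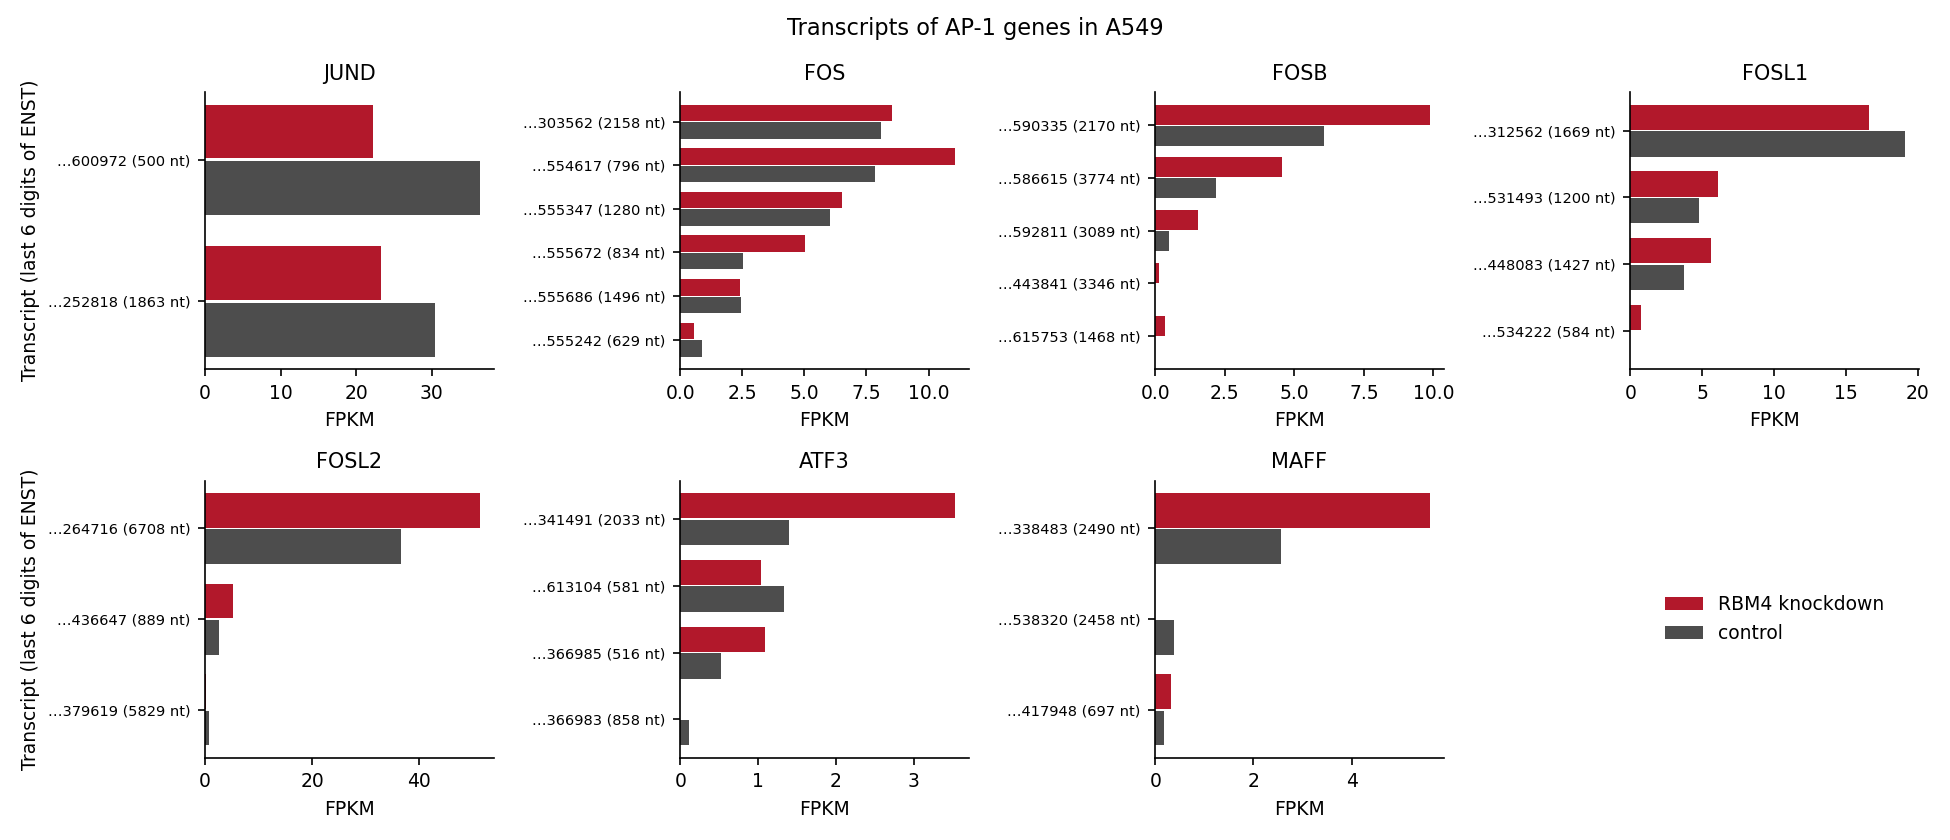
FPKM of each listed transcript with at least 0.05 FPKM for the 7 AP-1 genes with several transcripts, RBM4 knockdown library (red) above control library (grey); labels give the last 6 digits of the Ensembl transcript identifier and the length. Both JUND transcripts are lower in the knockdown library, the main FOSL1 transcript is lower while its shorter ones are higher, and the main transcripts of FOSL2, ATF3 and MAFF are higher.

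ATF3, MAFF and BATF3 were the least abundant members, all below 8 FPKM. ATF3 (chr1:212565334-212620777, plus strand), a stress-induced member of the ATF and CREB branch that often acts as a repressor, had 5.66 FPKM in the knockdown library and 3.39 FPKM in the control library (0.60). Its full-length transcript ENST00000341491 had 3.53 FPKM in the knockdown library and 1.40 FPKM in the control library, whereas the short ENST00000613104 had 1.04 FPKM in the knockdown library and 1.34 FPKM in the control library. Counted in fragments, which weight the long transcript more, ATF3 had 133 in the knockdown library and 63 in the control library, a ratio of 2.18 (1.60 to 2.99), against 1.67 in summed FPKM.

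MAFF (chr22:38200767-38216511, plus strand), a small Maf protein without an activating domain, had 5.92 FPKM in the knockdown library and 3.12 FPKM in the control library (0.75), with a fragment ratio of 1.90 (1.53 to 2.36). BATF3 (chr1:212686418-212699985, minus strand), a zipper protein that pairs with Jun proteins and is needed for a class of dendritic cells in mouse, had 7.56 FPKM in the knockdown library and 6.27 FPKM in the control library (0.24). At 105 fragments in the knockdown library and 91 in the control library, its ratio of 1.19 had a counting interval of 0.892 to 1.60, so no difference was detectable at this depth.

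In order of summed FPKM, the knockdown library ran JUNB, FOSL2, JUND, FOS, JUN, FOSL1, FOSB, BATF3, MAFF, ATF3. The control library ran JUND, JUNB, FOSL2, FOS, FOSL1, JUN, FOSB, BATF3, ATF3, MAFF. The place of JUND depends on its 500-base transcript: with basic transcripts alone it ranked 6 in the knockdown library and 3 in the control library, and JUNB ranked 1 in both. Neighbours whose counting intervals overlapped were FOS and JUN, BATF3 and MAFF, and MAFF and ATF3 in the knockdown library, and FOS and FOSL1, and ATF3 and MAFF, in the control library. The level intervals are approximate for genes with several transcripts. The counting interval of the fragment ratio lay below 1 for JUND, covered 1 for FOSL1 and BATF3, and lay above 1 for the other AP-1 genes. The share of all genes whose interval leaves out 1 was not computed, so these intervals set nothing apart in the AP-1 genes.

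Transcripts of immediate early genes often carry the pentamer ATTTA in the 3′ untranslated region, an element tied to rapid decay. Of the 10 AP-1 genes, 9 had at least 1 in the transcript with the highest mean FPKM times length, against 69.0% of 12135 genes with an annotated region. FOSL2 had 9, FOS 5, MAFF 4, and JUN and ATF3 3 each, JUNB had 2, and FOSB had 0. For FOSB only ENST00000590335 was scanned, and the longer ENST00000586615, with signal in both libraries, was not. Counts follow the length of the region; per kilobase the AP-1 genes held 2.21 and all genes 2.27.

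Lists of other genes around AP-1 give the setting, with log2 differences of knockdown over control in parentheses. The counts below stand against all genes tested, of which 4.96% were at least 2-fold higher and 2.25% at least 2-fold lower. Of 24 other zipper partners, 18 were tested, with 1 at least 2-fold higher, 1 at least 2-fold lower and a median difference of 0.05. DDIT3, a stress-induced factor of the C/EBP family, had 21.0 FPKM in the knockdown library and 6.04 FPKM in the control library (1.64), and BACH1 (0.43) and the stress factor ATF4 (0.27) followed. ATF5 (-1.38), CREM (-0.48) and ATF7 (-0.39) were lowest. The median of these partners was close to that of all genes.

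Transcripts of the kinases that switch AP-1 on lay around 0. All 23 listed genes were tested: MAP kinases, their activating kinases and the further kinases RPS6KA1, RPS6KA3 and RPS6KA5. The median was -0.01 (0.13 without mitochondrial genome genes), with 1 at least 2-fold higher and 0 at least 2-fold lower. MAPK13, a p38 kinase, had 2.06 FPKM in the knockdown library and 0.245 FPKM in the control library (1.30), and MAP2K1 (0.36) and MAPK7 (0.26) were next. MAPK13 passed the filter only through the knockdown library, so it could only come out higher. With a minimum of 5 FPKM, 17 of the listed genes were tested and 0 were past 2-fold. MAP2K6 (-0.90) and MAP3K5 (-0.64) were among the lowest. The 10 tested MAP kinase phosphatases, which switch the kinases off and are themselves induced by them, had a median of -0.01 (0.12 without mitochondrial genome genes) and none past 2-fold in either direction, or 1 higher with a pseudocount of 0.1 or the highest transcript. DUSP9 (0.68), DUSP7 (0.61) and DUSP8 (0.46) were highest, and DUSP5 (-0.62), DUSP6 (-0.37) and DUSP4 (-0.20) lowest. DUSP9 had 1.82 FPKM in the knockdown library and 0.755 FPKM in the control library. DUSP8 had 1.02 FPKM in the knockdown library and 0.472 FPKM in the control library. Both passed the filter only through the knockdown library, so they could only come out higher. DUSP5 had 28.7 FPKM in the knockdown library and 44.6 FPKM in the control library, and DUSP6 had 7.94 FPKM in the knockdown library and 10.5 FPKM in the control library. Kinase activity is set by phosphorylation, which these values do not show.

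Of the listed serum response and ternary complex factors, 7 were tested, and 2 of them were at least 2-fold higher. Their median was 0.19 and ran from 0.017 with a minimum of 5 FPKM to 0.35 without mitochondrial genome genes. MYOCD, below 5 FPKM in both libraries, drops out at that minimum, which leaves 1 gene past 2-fold. ELK3, a ternary complex factor, had 88.1 FPKM in the knockdown library and 32.6 FPKM in the control library (1.41), MYOCD had 4.33 FPKM in the knockdown library and 1.502 FPKM in the control library (1.09), and SRF was at 0.31. ELK4 (-0.51), ELK1 (-0.31) and MKL1 (-0.16) were lowest. The 9 tested regulators of Jun and Fos protein turnover had a median of 0.07, with none past 2-fold. TRIB1 (0.71) and ITCH (0.42), a ubiquitin ligase for Jun proteins, were among the highest. USP28 (-0.82), a deubiquitinase that protects JUN, DET1 (-0.33) and CSNK2A1 (-0.05) were lowest.

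Other immediate early genes were higher than all genes by their median, 0.25 against -0.04. Of 20 tested, 3 were at least 2-fold higher and 0 at least 2-fold lower, against 4.96% and 2.25% of all genes. With libraries rescaled to the same total, or without mitochondrial genome genes, 4 were at least 2-fold higher. A pseudocount of 0.1 left 3 higher and put 1 at least 2-fold lower. CYR61, a matrix-associated growth regulator, had 122 FPKM in the knockdown library and 38.1 FPKM in the control library (1.65), CTGF had 68.6 FPKM in the knockdown library and 27.3 FPKM in the control library (1.30), and MCL1 was at 1.08. NR4A2 (-0.77), MYC (-0.55) and NR4A3 (-0.14) were lowest. EGR1, which shares serum response control with FOS and was picked after its value was seen, had 12.7 FPKM in the knockdown library and 6.98 FPKM in the control library (0.78). DUSP1, likewise picked afterwards, had 207 FPKM in the knockdown library and 181 FPKM in the control library (0.19), and IER2, also picked afterwards, was at 0.11. SRF and DUSP1 each stand in another list here too. The immediate early genes thus ran from lower to more than 2-fold higher, as the AP-1 genes did, without a common size.

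Genes known as AP-1 targets had the highest median of the lists, 0.93 over 33 tested. Of these, 28 were above 0, against 46.6% of all genes. At least 2-fold higher were 14, and 1 was at least 2-fold lower, against 4.96% and 2.25% of all genes. MMP9, TNC and MMP14 passed the filter only through the knockdown library, so they could only come out higher. MMP9, at 1.28 FPKM there and 0.048 FPKM in the control library, is among those 14. With a minimum of 5 FPKM the median was 0.80, with 12 of 29 at least 2-fold higher. Without a filter on low values it was 0.71 over 38. The cytokine gene IL11, with 96.8 FPKM in the knockdown library and 6.63 FPKM in the control library (3.68), was among the highest. The lowest were HMOX1 (-1.60), which NRF2 also controls, AREG (-0.52) and EZR (-0.26). The urokinase receptor gene PLAUR, with 61.1 FPKM in the knockdown library and 13.5 FPKM in the control library (2.10), and the growth factor gene HBEGF, with 10.9 FPKM in the knockdown library and 1.79 FPKM in the control library (2.09), were named after their values were seen, as were AXL (-0.07), EREG (0.03) and PTGS2 (0.09), which lay near 0. The list was chosen with results on secreted and matrix genes of these libraries known, and its genes answer to other factors too, so its direction is no independent evidence on AP-1.

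**Figure D5:**
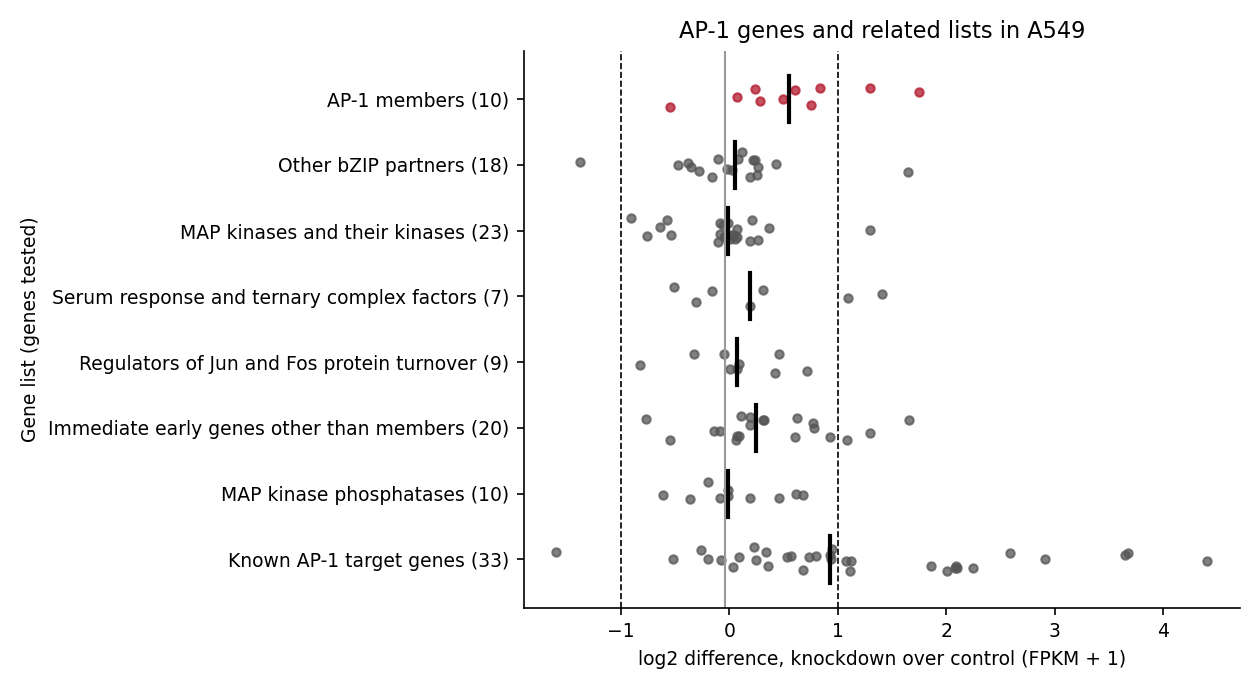
log2 difference, knockdown over control, on the FPKM + 1 scale for the AP-1 genes (red) and 7 related lists (grey); each point is a gene, black bars are medians, the grey line is the median of all genes (-0.04) and dashed lines mark 2-fold. Medians are 0.55 for the AP-1 genes and 0.93 for known AP-1 targets, and lie between -0.01 and 0.25 for the other 6 lists. The target median is 0.80 with a minimum of 5 FPKM and 0.71 without a filter on low values.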

How the data were processed

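RNA was extracted with Trizol, and 1 microgram per sample went into Illumina's TruSeq kit, per the labels' protocols. The submitters' processing notes name CASAVA (version 1.8.2), TopHat, Cufflinks and the build hg38; for roles, annotation and filters, nothing is given in the sources used. The authors deposited FPKM for protein-coding transcripts. Elsewhere 3 columns of values matched no sample by name, so H1299 was not analysed here, and the planned limma model over both lines was not computed.

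FPKM was summed per symbol, a gene needed at least 1 FPKM in one of the A549 libraries, and log2 of knockdown FPKM + 1 over control FPKM + 1 was taken. Fragments were estimated as FPKM times transcript length, less 270 bases in the knockdown and 260 in the control library, over the value of 1 fragment, fitted on every other single-transcript gene of at least 1500 bases and checked on the rest. Both steps were tested on simulated data. Ratio intervals are exact binomial and level intervals exact Poisson, at 95%, on the summed fragments of a gene. Level intervals were then scaled to summed FPKM. They are approximate, and can be too narrow, for genes with several transcripts, where short transcripts give much FPKM from few fragments. Lengths, exons and overlaps came from GENCODE release 29 (99.5% of transcripts matched). Python 3.11.15, pandas 2.3.3 and SciPy 1.17.1 were used.

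The AP-1 genes and the 7 lists were chosen with earlier results of these data known. All 10 AP-1 genes, RBM4, and from each list the 3 genes at either end are named by rule; some of these are not reported here, and others were picked after their values were seen. Alternatives tried were the pseudocount, the filter, rescaling, centring, leaving out mitochondrial genome genes, the highest transcript and, added after seeing the data, estimated fragments and GENCODE basic transcripts; the order and shares of levels under other transcripts were also added then.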

Additional observations from a re-analysis of the deposited data

How the results depend on the processing

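JUNB and JUN were at least 2-fold higher, and no AP-1 gene was 2-fold lower, under each of the 9 alternatives. The median of the AP-1 genes was 0.65 with libraries rescaled to the same total, 0.65 by estimated fragments scaled to library size and 0.70 with mitochondrial genome genes left out. FOSL1 turned to -0.19 with the highest transcript per symbol and to -0.0056 by estimated fragments. The first follows from dropping its shorter transcripts. Fragments weight its longest transcript, ENST00000312562, more, with 454 in the knockdown library and 544 in the control library. Whether this alone gives the second value was not tested. The count of all 2-fold genes was 1403 with a pseudocount of 0.1. JUND ran from -0.69 with its highest transcript, the 500-base ENST00000600972, to -0.38 with basic transcripts, which keep only ENST00000252818. No paired analysis was possible because each group had 1 library, so variation between cultures is unknown, whatever the depth.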
